A study of Mus musculus with 12 samples.

Results

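The genes described here are 10 chemokines that recruit myeloid cells, Cxcl1, Cxcl2, Cxcl5, Ccl2, Ccl7, Ccl8, Ccl3, Ccl4, Ccl11 and Ccl20. They were taken by name, through the accessions of the array's probes, and they are 10 of the 32507 genes or transcripts on the array. All 10 passed the filter on dim probes and were among the 23239 that were tested. Total RNA of whole colon from male C57BL/6J mice was hybridised to 12 single-colour Agilent arrays. Mice were wild type (WT), lacked Atf6 (ATF6aKO) or lacked Atf6b (ATF6bKO), and each genotype was untreated (UT) or had received 3% dextran sulfate sodium (DSS), which injures the colonic epithelium, in its drinking water for 3 days. Each of the 6 groups of genotype and treatment has 2 arrays. The labels leave the design of the knockout alleles unstated. They also do not say whether both arrays of a group stem from different mice, so p-values reflect only how far these samples spread, possibly for technical reasons.

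Chemokines are small secreted proteins that direct the migration of leukocytes along a gradient by binding to G protein-coupled receptors. Those of the CXC family with a glutamate-leucine-arginine motif attract neutrophils through the receptor CXCR2, and many of the CC family attract monocytes, macrophages, eosinophils and lymphocytes. In an injured colon they are made by epithelial cells, stromal cells and resident macrophages, and their genes are classical targets of the transcription factor NF-kB. ATF6a, encoded by Atf6, and ATF6b are sensors of unfolded proteins that are cleaved on their way from the endoplasmic reticulum and then act as transcription factors in the nucleus.

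The level of a gene is given throughout as the log2 of its probe's processed signal minus the log2 of the array's 75th percentile, so 0 is the level of that percentile. Levels are compared between arrays, never between genes. On the 4 arrays of ATF6aKO the Atf6 probe lay between -3.23 and -3.04, against 0.60 to 1.22 on the other 8 arrays. The Atf6b probe was not well above background on either ATF6bKO UT array or on ATF6bKO DSS replicate 2, and read -4.14 on ATF6bKO DSS replicate 1, against -1.10 to 0.16 elsewhere. The position of these probes relative to the deleted parts is unstated in the labels.

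Conflicts in the labels bear on every statement about WT. For the 4 WT samples the titles and the treatment fields contradict each other, so WT groups were formed by title, named titled DSS and titled UT here, and no sign of their difference is read as an effect of DSS. Of the 12 columns in the authors' deposited value table, 8 follow the array of another sample. Its WT columns follow the arrays of the other WT group and its ATF6aKO columns have the replicates exchanged within a group. The labels of the knockouts do not conflict. Each genotype was scanned in a run of its own, 3 runs in all, and the WT arrays were read with an older version of the probe grid, so genotype and scan run cannot be told apart.

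As a check of the tissue, 9 of 9 tested markers of colon epithelium were well above background on all 12 arrays. Of 6 tested markers of small intestine and pancreas, 3 to 6 were so on each array.

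Sequences upstream of 5 of the 10 genes, Cxcl1, Cxcl2, Ccl3, Ccl8 and Ccl20, are shown because their transcripts were measured together and NF-kB is the best known regulator of the family. They come from RefSeq (assembly GRCm38.p6) and cover the 120 bases before the annotated start, 5′ to 3′ on the gene's own strand. Capitals mark matches on either strand to the NF-kB letters, GGG and TTCC with any 3 bases between them, or to the TATA box TATAAA. Cxcl1 is at chr5:90891125-90891244 on the plus strand and Cxcl2 at chr5:90903779-90903898 on the plus strand. Ccl20 is at chr1:83116646-83116765 on the plus strand, Ccl8 at chr11:82115065-82115184 on the plus strand and Ccl3 at chr11:83649379-83649498 on the minus strand.
Cxcl1: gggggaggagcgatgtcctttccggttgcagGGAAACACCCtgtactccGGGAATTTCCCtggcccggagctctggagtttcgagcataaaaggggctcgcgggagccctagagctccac
Cxcl2: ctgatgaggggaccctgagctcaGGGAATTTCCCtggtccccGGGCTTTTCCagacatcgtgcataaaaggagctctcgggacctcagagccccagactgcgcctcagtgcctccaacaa
Ccl20: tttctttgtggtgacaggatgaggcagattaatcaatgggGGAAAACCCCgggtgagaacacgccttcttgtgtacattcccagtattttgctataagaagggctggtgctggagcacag
Ccl8: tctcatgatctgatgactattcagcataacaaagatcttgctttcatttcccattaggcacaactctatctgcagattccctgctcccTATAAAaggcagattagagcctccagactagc
Ccl3: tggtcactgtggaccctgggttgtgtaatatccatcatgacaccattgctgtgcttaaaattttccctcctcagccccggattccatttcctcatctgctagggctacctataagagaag

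The NF-kB letters were found in 3 of these 5 promoters, counted over 250 bases before to 50 after the start, and in 5.555% of all 32851 promoters of that length (2.417% in the 120 bases shown). Cxcl1 and Cxcl2 share the run GGGAATTTCCC, which matches on both strands in overlapping frames. It begins 71 bases upstream of the start in Cxcl1 and 97 bases upstream in Cxcl2, and each promoter has one more match, at 89 and 78 bases. Ccl20 has one match, on the minus strand, beginning 80 bases upstream. Ccl8 has no match to the NF-kB letters and a TATA box 32 bases upstream, a sequence found in 13.616% of promoters. The AP-1 letters TGANTCA and the C/EBP letters TTGCNNAA were in 0 of the 5, and in 7.808% and 10.797% of all promoters. A match describes the letters only, and no match says only that these letters are not in this window. Of the 10 genes, 6 lie on chromosome 11, 3 on chromosome 5 and Ccl20 on chromosome 1.

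**Figure D1:**
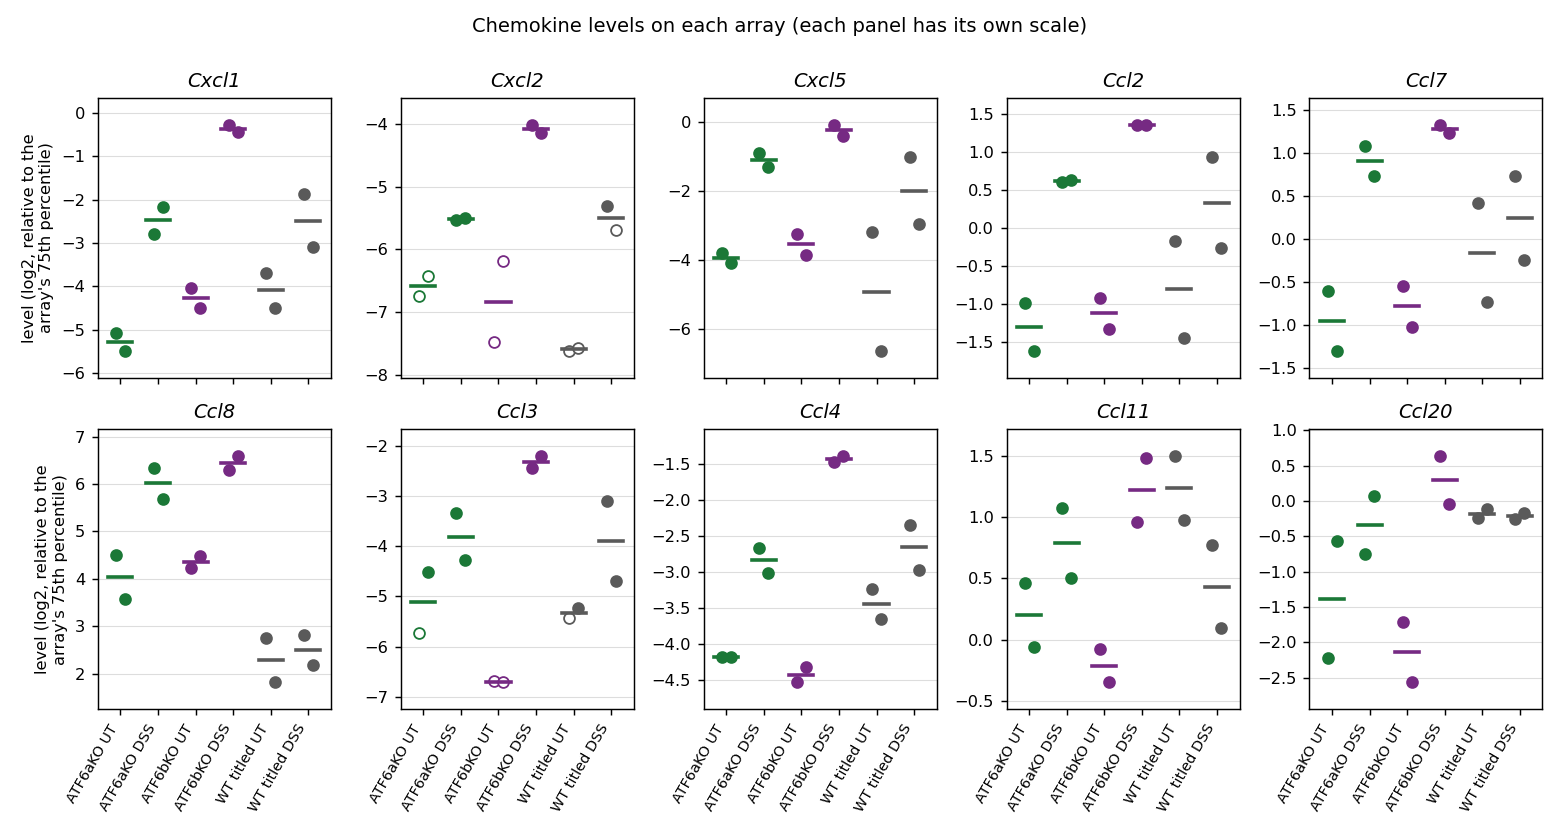
Level of each chemokine on each of the 12 arrays (vertical axes, log2 relative to the array's 75th percentile, 1 scale per panel) in the 6 groups, with points for arrays and lines for group means. Open points were not well above background. In 9 of the 10 panels ATF6bKO DSS has the highest mean, and in the Ccl8 panel all 4 WT arrays lie below all 8 knockout arrays. The share of all genes with either pattern was not counted.

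The chemokines were higher with DSS in both knockouts. In a fit of the 8 knockout arrays with terms for genotype and treatment, 10 of 10 rose, by 1.01 (Ccl11) to 3.36 (Cxcl1) on the log2 scale, with a median of 2.11 against -0.01 over all genes. Of all genes tested, 13.3% rose. Within each knockout, 5 of 10 rose in ATF6aKO (2.88% of all genes) and 9 of 10 in ATF6bKO (5.71% of all genes). Both DSS arrays lay above both UT arrays for 9 of 10 in ATF6aKO (36.1% of all genes), for 10 of 10 in ATF6bKO (26.5%) and for 9 of 10 in both knockouts at once (17%). The exception was Ccl20, whose arrays overlapped in ATF6aKO. The medians of the 10 changes were 1.60 in ATF6aKO, against 0.04 over all genes, and 2.62 in ATF6bKO, against -0.06. The counts and medians of the 10 include Cxcl2 and Ccl3, which passed the filter on dim probes only through groups where they were high. For Cxcl2 these were the DSS groups of both knockouts, and for Ccl3 also WT titled DSS. The tests were also rerun over only those genes above background on every array, which left 8 chemokines. In that rerun 8 rose over both knockouts (median 2.11), 5 in ATF6aKO and 8 in ATF6bKO, and its shares of all genes are not given. In the main test Cxcl5, 1 of these 8, did not pass in ATF6bKO (limma adjusted p = 0.058).

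Among the neutrophil attractants, which act through CXCR2, Cxcl1 rose in each knockout. Its level was -5.08 and -5.49 on the ATF6aKO UT arrays and -2.79 and -2.16 on the ATF6aKO DSS arrays. In ATF6bKO it was -4.04 and -4.50 untreated and -0.27 and -0.44 with DSS. The 4 DSS arrays lay above the 4 UT arrays, and both ATF6bKO DSS arrays lay above both of ATF6aKO DSS. The rise was 2.81 (SE 0.432, 7-fold, limma adjusted p = 0.0119) in ATF6aKO and 3.91 (SE 0.432, 15.1-fold, adjusted p = 0.00183) in ATF6bKO. By size it ranked 33rd from the highest in ATF6aKO and 70th in ATF6bKO among all genes tested.

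Cxcl2 encodes a close relative of Cxcl1 and was at the edge of detection. Its probe was not well above background on any of the 4 knockout UT arrays. With DSS it read -5.53 and -5.50 in ATF6aKO and -4.01 and -4.14 in ATF6bKO, and was above background on all 4. A bound on its change was formed by setting the mean of the DSS arrays against, per UT array, the lowest signal of any probe well above background, or the probe's own where that was higher. Such a bound limits the effect of background only and takes no account of the spread between arrays, so it is no confidence limit. By this bound the mean of Cxcl2 was at least 1.43-fold higher with DSS in ATF6aKO, where the test was not passed (adjusted p = 0.11). In ATF6bKO it was at least 2.92-fold higher (adjusted p = 0.00271).

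Cxcl5, which in the gut is a product of epithelial cells, read -3.79 and -4.08 untreated and -0.90 and -1.29 with DSS in ATF6aKO. In ATF6bKO it read -3.23 and -3.84 untreated and -0.07 and -0.39 with DSS. These groups did not overlap. The differences were 2.84 in ATF6aKO and 3.30 in ATF6bKO, and neither passed the test over 12 arrays (adjusted p = 0.119 and 0.058), where the shared SE of 0.973 includes a WT titled UT pair at -3.19 and -6.62. Without either of those WT arrays, replicate 1 or replicate 2, which removes their spread, both passed (adjusted p = 0.0229 and 0.00976). Over the 8 knockout arrays alone Cxcl5 rose by 3.07 (SE 0.194, 8.42-fold, adjusted p = 0.000725).

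The monocyte attractants Ccl2, Ccl7 and Ccl8 rose in both knockouts by similar amounts. Ccl2, the main ligand of CCR2 on inflammatory monocytes, was -0.99 and -1.62 untreated and 0.61 and 0.64 with DSS in ATF6aKO. In ATF6bKO it was -0.92 and -1.33 untreated and 1.36 on both DSS arrays. The groups did not overlap, and the rises were 1.93 (SE 0.477, 3.82-fold, adjusted p = 0.049) and 2.48 (SE 0.477, 5.59-fold, adjusted p = 0.0117). Its probe is spotted 10 times on each array, and the other probes of these genes once.

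Ccl7, a second CCR2 ligand, was -0.60 and -1.30 untreated and 1.09 and 0.73 with DSS in ATF6aKO. In ATF6bKO it was -0.54 and -1.02 untreated and 1.33 and 1.23 with DSS. Again no UT array reached a DSS array, with rises of 1.86 (SE 0.443, 3.63-fold, adjusted p = 0.044) and 2.06 (SE 0.443, 4.18-fold, adjusted p = 0.0182). A second Ccl7 probe gave 1.905 and 2.12.

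Ccl8 belongs to the same family of monocyte attractant proteins. It was 4.51 and 3.57 untreated and 6.34 and 5.69 with DSS in ATF6aKO, and 4.22 and 4.47 untreated and 6.30 and 6.59 with DSS in ATF6bKO. It rose by 1.98 (SE 0.417, 3.95-fold, adjusted p = 0.0294) and 2.10 (SE 0.417, 4.28-fold, adjusted p = 0.0133). The DSS arrays of the 2 knockouts overlapped each other, as did their UT arrays.

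The macrophage inflammatory proteins Ccl3 and Ccl4, which are made by activated macrophages, T cells and NK cells, stood higher with DSS in ATF6bKO than in ATF6aKO. The same held on both DSS arrays for Cxcl1, Cxcl2, Cxcl5, Ccl2 and Ccl7, and no difference between the responses was called. Ccl4 was -4.18 on both ATF6aKO UT arrays and -2.67 and -3.01 with DSS. In ATF6bKO it was -4.53 and -4.33 untreated and -1.46 and -1.38 with DSS. It rose by 1.35 (SE 0.245, 2.54-fold, adjusted p = 0.0191) in ATF6aKO and by 3.01 (SE 0.245, 8.04-fold, adjusted p = 0.000711) in ATF6bKO. For Ccl3 the ATF6aKO arrays read -4.50 on UT replicate 2, which was above background, and -3.35 and -4.27 with DSS; UT replicate 1 was not above background. The difference of 1.30 in ATF6aKO (SE 0.549, adjusted p = 0.191) was not called. In ATF6bKO both UT arrays were below background and the DSS arrays read -2.44 and -2.21, at least 9.83-fold higher (adjusted p = 0.00247).

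Ccl11 and Ccl20 changed least over the 2 knockouts. Ccl11, also called eotaxin, attracts eosinophils through CCR3. It was 0.46 and -0.06 untreated and 1.08 and 0.51 with DSS in ATF6aKO, a difference of 0.59 (SE 0.338, adjusted p = 0.329) that was not called. In ATF6bKO it rose from -0.08 and -0.35 to 0.96 and 1.48, by 1.43 (SE 0.338, 2.7-fold, adjusted p = 0.0266). Ccl20 is the ligand of CCR6 and is made by the epithelium over lymphoid follicles. Its ATF6aKO arrays overlapped, at -2.23 and -0.56 untreated and -0.75 and 0.08 with DSS, and the difference of 1.055 was not called (adjusted p = 0.272). In ATF6bKO it rose from -1.72 and -2.57 to 0.64 and -0.04, by 2.44 (SE 0.534, 5.42-fold, adjusted p = 0.0198).

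Single arrays decide many of these calls. In ATF6aKO the number of chemokines called fell from 5 to 0 without UT replicate 1, UT replicate 2 or DSS replicate 2 of that genotype and to 1 without DSS replicate 1, where the lone array of the arm is assumed to vary like the other groups. It was 3 without either ATF6bKO DSS array. In ATF6bKO the number fell from 9 to 4 without DSS replicate 2, to 5 without UT replicate 2 and to 6 without UT replicate 1 or DSS replicate 1. Cxcl1, Cxcl2, Ccl3 and Ccl4 passed in ATF6bKO under each of the 12 omissions. Over the pooled knockouts 7 to 9 of 10 passed under each of 8 omissions. Cxcl1, Cxcl2, Cxcl5, Ccl2, Ccl4, Ccl7 and Ccl8 passed under all 8, Ccl3 was lost in 3 of them, and Ccl11 and Ccl20 in 6 each.

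**Figure D2:**
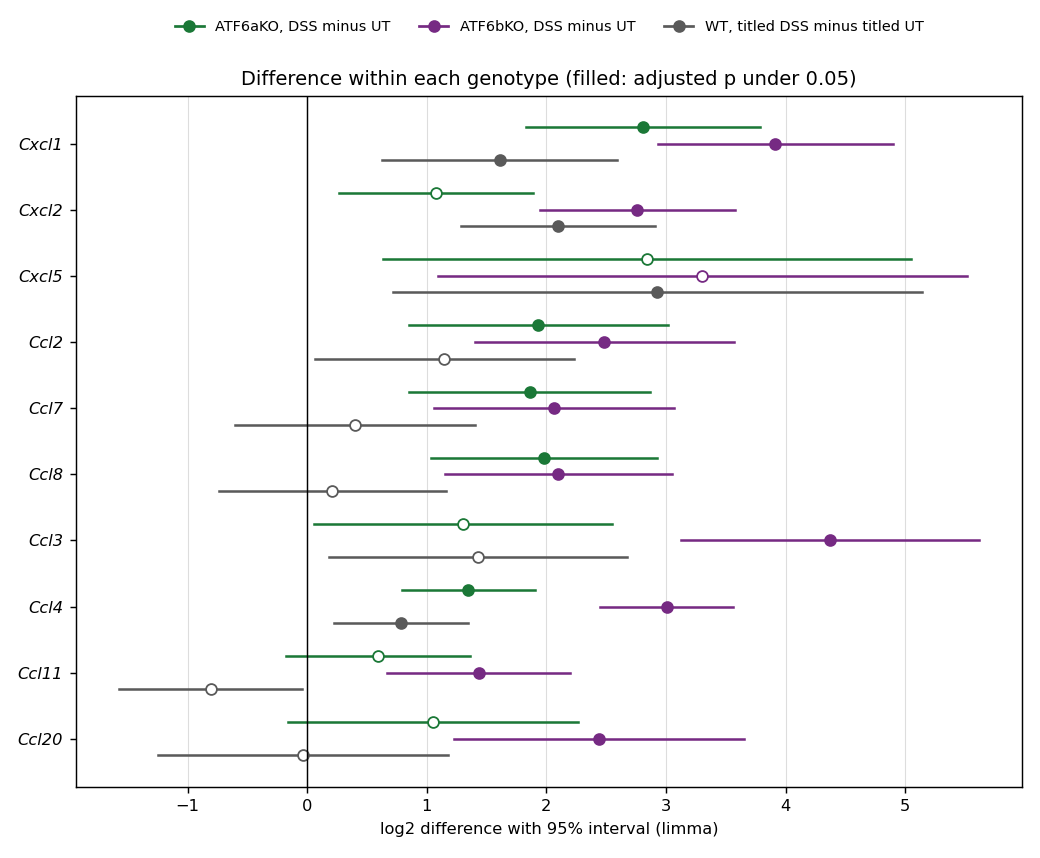
Difference between the DSS and UT arrays for each chemokine within each genotype (horizontal axis, log2, with 95% intervals from limma), for WT by titles. Filled points passed an adjusted p of 0.05. In ATF6bKO 9 of 10 points are filled, in ATF6aKO 5 and in WT 4, and the WT points of Ccl11 and Ccl20 lie at -0.81 and -0.04. Points of Cxcl2 and Ccl3 rest in part on signals not above background.

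Whether the response differed between the knockouts was tested directly. All 10 differences were above 0 (ATF6bKO minus ATF6aKO), as were 40.5% over all genes, with a median of 0.97 against -0.09. None of the 10 was called by limma, nor was any of the 23239 genes (0%). At an unadjusted p under 0.05 there were 3 chemokines and 1858 genes (8% of all). Those 3 were Ccl4 (1.66, interval 0.88 to 2.45), Ccl3 and Cxcl2, with adjusted p from 0.299 to 0.444. No size is given for Ccl3 and Cxcl2, since Ccl3 was below background on 3 of the 4 knockout UT arrays and Cxcl2 on all 4. The intervals of Ccl2 (-0.98 to 2.08), Ccl7 (-1.22 to 1.63), Ccl8 (-1.22 to 1.46) and Cxcl5 (-2.67 to 3.59) leave room for a difference either way. No chemokine was called under any alternative, while quantile normalization called 5 genes of all tested and the fit of the 8 knockout arrays called 4. Without ATF6bKO DSS replicate 1, 83 genes were called, none of them among the 10.

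In WT, 4 of 10 chemokines were higher on the arrays titled DSS, where 14.7% of all genes were. Cxcl1 was -3.69 and -4.49 on the arrays titled UT and -1.87 and -3.10 on those titled DSS, a difference of 1.61 (SE 0.432, 3.05-fold, adjusted p = 0.0232). Cxcl2 was below background on both arrays titled UT and on 1 of the 2 titled DSS, so no size is given for its difference (adjusted p = 0.00484). Ccl4 differed by 0.78 (SE 0.245, 1.72-fold, adjusted p = 0.0395). Cxcl5 was at -3.19 and -6.62 on the arrays titled UT and -0.9988 and -2.96 on those titled DSS, with a difference of 2.93 (SE 0.973, 7.62-fold, adjusted p = 0.0484) that was lost under 11 of 12 omissions. The value of -6.62 is next to the lowest level of any probe well above background on that array, -6.64. The size of the difference thus rests in part on a signal at the edge of detection.

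The other 6 WT differences were not called. For Ccl3 (1.43, adjusted p = 0.0771) the arrays titled DSS lay above those titled UT. For Ccl2 (1.145, adjusted p = 0.0979), Ccl7 (0.40), Ccl8 (0.21) and Ccl20 (-0.04) the arrays overlapped. Ccl11 ran the other way, at 1.50 and 0.98 on the arrays titled UT and 0.77 and 0.09 on those titled DSS (-0.81, adjusted p = 0.0992). The count fell to 1 without WT titled DSS replicate 1 or WT titled UT replicate 2, and to 2 without any of 6 knockout arrays, those of ATF6aKO and of ATF6bKO DSS. By the treatment fields the same differences carry the opposite sign, with 4 of 10 lower (14.7% of all genes).

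Set beside WT by titles, the response in ATF6bKO was larger for 4 of 10 chemokines, where 6.29% of all genes were called in that direction. They were Ccl3 (adjusted p = 0.0398), given without a size because both ATF6bKO UT arrays and 1 of the 2 WT arrays titled UT were below background, Cxcl1 (2.31, SE 0.61, adjusted p = 0.0401), Ccl11 (2.24, SE 0.478, adjusted p = 0.0224) and Ccl4 (2.22, SE 0.346, adjusted p = 0.0104). Ccl4 passed under all 12 omissions, Ccl11 was lost in 3, Ccl3 in 9 and Cxcl1 in 10. The number called fell to 1 without replicate 2 of WT titled DSS, ATF6bKO UT or ATF6bKO DSS, and to 2 without replicate 1 of WT titled UT, ATF6bKO UT or ATF6bKO DSS or either ATF6aKO DSS array. For ATF6aKO 0 of 10 passed in limma, while 1777 genes (7.65%) did in either direction. At an unadjusted p under 0.05 there were 3 chemokines, Ccl7, Ccl8 and Ccl11, and 7014 genes (30.2% of all). All 3 passed without WT titled UT replicate 2. These comparisons share the WT arrays.

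Under the other reading of the WT labels the same contrasts called 8 of 10 chemokines in ATF6aKO (14% of all genes higher) and 9 of 10 in ATF6bKO (12.7%), all larger in the knockout. Cxcl1 then differed by 4.42 in ATF6aKO and 5.52 in ATF6bKO, and Ccl11, at -0.215 and 0.63, was the 1 chemokine that passed in neither. The answer to how the knockouts compare with WT therefore turns on which label is right, and the scan run moves with genotype under both.

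**Figure D3:**
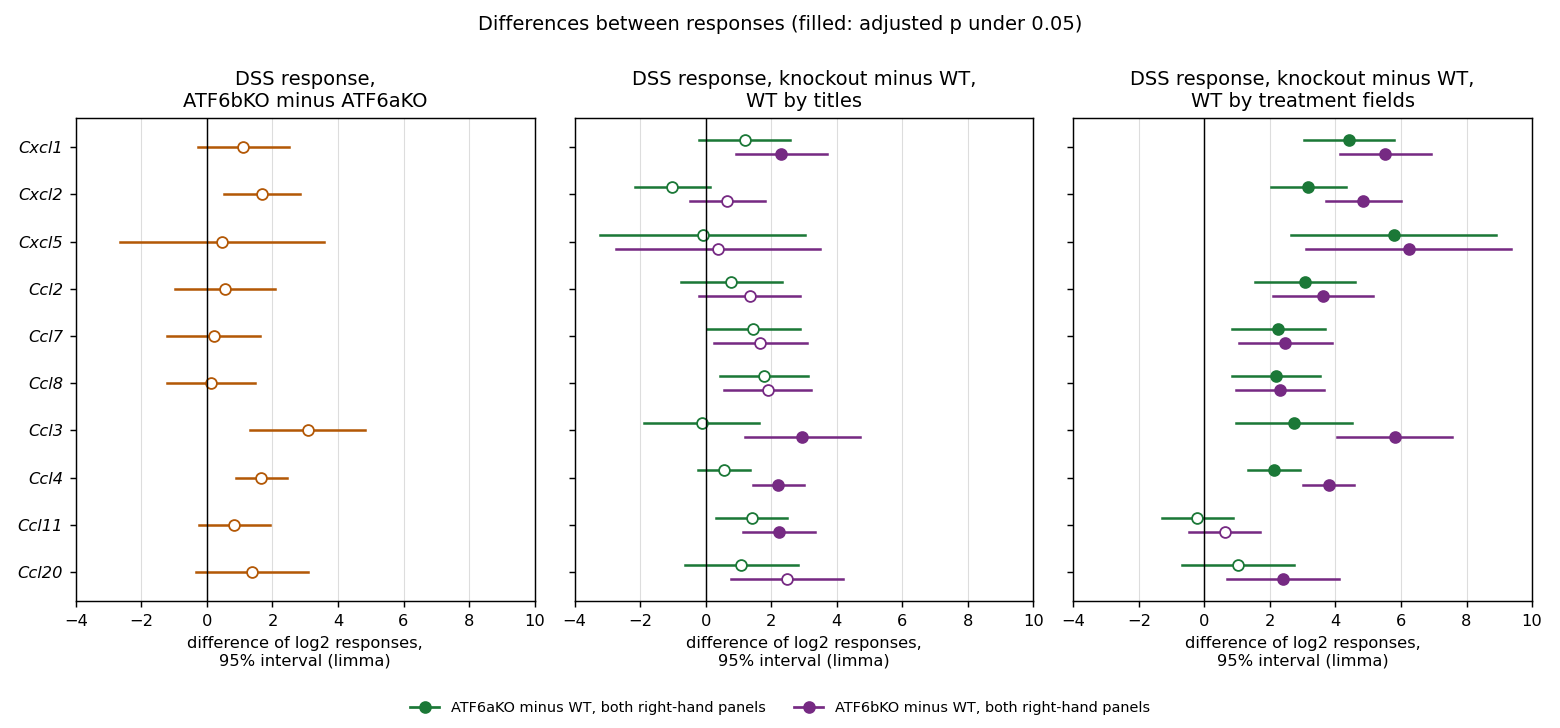
Differences between DSS responses for each chemokine (horizontal axes, log2, with 95% intervals from limma): ATF6bKO minus ATF6aKO on the left, each knockout minus WT with WT grouped by titles in the middle and by treatment fields on the right. Filled points passed an adjusted p of 0.05. The counts of filled points are 0 on the left, 0 and 4 in the middle, and 8 and 9 on the right. Points of Cxcl2 and Ccl3 rest in part on signals not above background.

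Between the untreated knockouts no chemokine passed the test, and the intervals leave room for differences of several fold. None of the 10 was called in limma between ATF6bKO UT and ATF6aKO UT, while 136 genes (0.585%) were. At an unadjusted p under 0.05 there were 2 chemokines and 3893 genes (16.8% of all). Those 2 were Cxcl1, with both ATF6bKO arrays above both ATF6aKO arrays (1.01, interval 0.03 to 1.99, adjusted p = 0.283), and Ccl3, below background on both ATF6bKO UT arrays and on 1 of the 2 ATF6aKO UT arrays (adjusted p = 0.195). The intervals ran from -0.64 to 1.25 for Ccl8, -0.90 to 1.27 for Ccl2, -1.96 to 0.47 for Ccl20 and -1.81 to 2.61 for Cxcl5.

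Against WT titled UT, untreated Ccl8 was higher in both knockouts. Its 4 knockout UT arrays read 3.57 to 4.51, and the WT arrays titled UT 2.75 and 1.82. The difference was 1.75 (SE 0.417, 3.37-fold, adjusted p = 0.00944) for ATF6aKO and 2.06 (SE 0.417, 4.17-fold, adjusted p = 0.00468) for ATF6bKO. By the same test 19.6% of all genes were higher in ATF6aKO and 23% in ATF6bKO. The WT arrays titled DSS were at 2.82 and 2.17, so all 4 WT arrays lay below all 8 knockout arrays. The share of all genes separated in this way was not counted, and the WT arrays were scanned in a run of their own. Under the other reading of the labels, where 7.68% and 9.19% of all genes were higher, the Ccl8 difference was 1.54 and 1.85 (adjusted p = 0.0336 and 0.0197). It was lost for ATF6aKO without ATF6aKO UT replicate 1 (adjusted p = 0.0677, the highest over the omissions).

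Other chemokines were lower in the untreated knockouts than in WT titled UT. Ccl11 was lower in both, with differences of -1.04 (SE 0.338, adjusted p = 0.0331) in ATF6aKO and -1.45 (SE 0.338, adjusted p = 0.00851) in ATF6bKO. So was Ccl4, with differences of -0.74 (SE 0.245, adjusted p = 0.0351) and -0.99 (SE 0.245, adjusted p = 0.011). Cxcl1 was lower in ATF6aKO (-1.19, SE 0.432, adjusted p = 0.0483) and Ccl20 in ATF6bKO (-1.96, SE 0.534, 3.9-fold, adjusted p = 0.0162). Cxcl2 passed as higher in ATF6aKO (adjusted p = 0.0454) although its probe was below background on all 4 arrays compared, so no fold is given. These calls stand among many, since 19.6% of all genes were higher and 27.2% lower in ATF6aKO, and 23% and 23.7% in ATF6bKO. In all, 2 were called higher and 3 lower in ATF6aKO, and 1 higher and 3 lower in ATF6bKO. Without WT titled UT replicate 1 none of these lower calls held in either knockout. The number called in ATF6aKO fell from 5 to 1 without ATF6aKO UT replicate 1, to 2 without ATF6aKO UT replicate 2, either ATF6bKO DSS array or WT titled UT replicate 1, and to 3 without either ATF6aKO DSS array. In ATF6bKO it fell from 4 to 2 without ATF6bKO UT replicate 2 or WT titled UT replicate 1. Under the other reading 1 was higher (7.68% of all genes) and 3 lower (11.8%) in ATF6aKO, and 1 higher (9.19%) and 5 lower (7.98%) in ATF6bKO, and Ccl11 passed in neither, at -0.23 and -0.64.

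In the order of the 6 group means ATF6bKO DSS was highest for 9 of 10, and for 8 of these both of its arrays lay above both arrays of the next group. For Ccl8 it overlapped ATF6aKO DSS, and Ccl11 was highest in WT titled UT, which overlapped ATF6bKO DSS. Below the DSS groups the order of Cxcl2 and Ccl3 is among signals not above background and is not read. For the other 8 the lowest mean belonged to ATF6bKO UT or ATF6aKO UT for 3 each and to WT titled UT for 2. Of 5 pairs of neighbours in the order, those separated on every array numbered 4 for Ccl4, 3 for Cxcl1, 2 for Cxcl5, Ccl7 and Ccl8, and 1 for Ccl2, Ccl11 and Ccl20. The span from the highest to the lowest group was 1.45 for Ccl11 and 4.93 for Cxcl1. How many of all genes share these orders was not counted, so they are not read as particular to the chemokines. Genotype and scan run cannot be told apart in them.

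Over the 12 arrays, which share the 6 groups and the scan runs, Ccl2 and Ccl7 had the closest profiles of any pair (Pearson r = 0.974), followed by Cxcl1 and Ccl2 (0.956). Ccl8 and Ccl20 were the least alike (0.03). The gene outside the 10 with the most similar profile was Il11, a cytokine of stromal cells, for Cxcl1 (r = 0.966), Timp1, an inhibitor of matrix metalloproteinases, for Ccl2 (0.953) and Tnfaip2, a TNF-induced gene, for Ccl4 (0.964). It was Pcdhb16 for Ccl7 (0.967), Emilin2 for Ccl8 (0.984), Htr7 for Ccl3 (0.959) and Dusp22 for Ccl11 (0.953). For Cxcl2 it was Cxcl16 (0.955), for Cxcl5 Ccn4 (0.945) and for Ccl20 the cytokine Tnf (0.872).

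Most of the tested receptors rose with these ligands over both knockouts. The receptors Cxcr1, Ccr1 and Ccr8 did not pass the filter on dim probes and were not tested. Of 8 tested receptors and scavenging receptors 7 rose (median 1.60), and Ccr6, the receptor for Ccl20, had a value of 1.28 (adjusted p = 0.139). The neutrophil receptor Cxcr2 passed (adjusted p = 0.0441) but was above background on 6 of 12 arrays, including 1 of the 2 UT arrays in each knockout, so no size is given. It was lost with quantile normalization, without a filter and with the replicate block, and in 5 of 8 omissions, those of ATF6aKO DSS replicate 1, either ATF6bKO DSS array or either ATF6aKO UT array (highest adjusted p 0.107). Ccr2 rose by 1.66 and Ackr2, a decoy receptor that removes CC chemokines, by 1.77. In single knockouts 2 of the 8 rose in ATF6aKO and 7 in ATF6bKO.

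Other chemokine ligands rose over both knockouts in 14 of 20 cases (median 1.60), and in single knockouts 3 were called in ATF6aKO and 12 in ATF6bKO. Some of the 20 were dim, such as Cxcl3, above background on 3 of 12 arrays. When only genes above background on all 12 arrays were tested, 12 of 16 rose over both knockouts and 1 was lower (median 1.23). By fitted value the largest over both were the interferon-induced T cell attractants Cxcl9 (4.02) and Cxcl10 (3.27), then Xcl1 (3.05) and Ccl19 (2.90). Xcl1 attracts dendritic cells, and Ccl19 guides T cells and dendritic cells to lymphoid tissue. Xcl1 was above background on 0 of the 2 ATF6aKO UT arrays and 1 of the 2 ATF6bKO UT arrays. For Cxcl9 it was 1 of the 2 ATF6bKO UT arrays. The fitted values of Xcl1 and Cxcl9 thus rest in part on signals not above background. In ATF6aKO alone Cxcl9 (1.66, limma adjusted p = 0.178), Xcl1 (adjusted p = 0.0565) and Ccl19 (adjusted p = 0.0803) were not called. Cxcl9 was lost without ATF6aKO DSS replicate 1 or either ATF6bKO DSS array (highest adjusted p 0.0658), and the list's count was 9 without ATF6aKO DSS replicate 1. The epithelial chemokines Ccl25 (-0.44) and Ccl28 (0.15) did not pass.

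Of 11 tested cytokines and colony-stimulating factors that induce chemokines, 8 rose (median of fitted values 1.74). Some of the 11 passed the filter only through groups where they were high. Of the 5 above background on all 12 arrays, 4 rose (median 1.43) when only such genes were tested. Those that rose among the 11 included Tnf (3.22), Il6, Ifng and Il22. The last 3 were below background untreated in ATF6bKO, where the change was at least 24.1-fold for Il6, at least 22.1-fold for Ifng and at least 5.95-fold for Il22, and 15.5-fold for Tnf. In ATF6aKO the change was 5.72-fold for Il6, 5.59-fold for Tnf and at least 2.39-fold for Il22, and Ifng, above background on 1 of the 2 DSS arrays and neither UT array, did not pass (adjusted p = 0.0801). NF-kB subunits and feedback genes rose in 5 of 12 cases over both knockouts (median 0.48). Among them were the adhesion molecule Icam1 (1.35), the inhibitor Nfkbie (1.103), Bcl3 (0.84) and the subunit Nfkb2 (0.66). In single knockouts 1 of the 12 was called in ATF6aKO and 3 in ATF6bKO. Icam1 passed in neither (limma adjusted p = 0.464 in ATF6aKO and 0.096 in ATF6bKO). Its pooled call was lost with all 12 arrays in the fit. Bcl3 did not pass in ATF6bKO (adjusted p = 0.0572), nor did Nfkbie (0.0776) and Nfkb2 (0.0688) in ATF6aKO.

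Markers of leukocytes moved with the chemokines, and their part in the result was not tested. In whole tissue, a change in the number of cells of a type and a change in RNA per cell cannot be told apart. Over both knockouts 10 of 10 tested neutrophil markers rose (median of fitted values 2.06), with S100a9 at 5.96 and S100a8 at least 195-fold higher in ATF6bKO. Some of them passed the filter only through groups where they were high, and the 2 that were above background on all 12 arrays both rose. In single knockouts 4 of these 10 markers were called in ATF6aKO and 7 in ATF6bKO. Their mean level ran from -5.51 to -4.96 on the UT arrays, with 4 to 6 of 10 above background, and from -3.38 to -2.96 on the ATF6aKO DSS and -1.66 to -1.60 on the ATF6bKO DSS arrays, with 9 or 10 above. Of 11 monocyte and macrophage markers 10 rose over both knockouts (median 1.23), among them Fcgr1 (2.03) and C1qa (1.60). In single knockouts 2 of these 11 markers were called in ATF6aKO and 7 in ATF6bKO. Their mean level ran from 0.84 to 1.45 on the UT arrays and from 2.045 to 2.55 with DSS, with 11 of 11 above background on every array.

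T and NK cell markers rose in 6 of 6 cases (median 1.69, such as Gzma at 2.78 and Cd8a at 1.99), but in 2 of 6 without replicate 1 of ATF6aKO DSS or replicate 2 of ATF6bKO DSS, and in 3 without replicate 1 of ATF6bKO UT, ATF6bKO DSS or ATF6aKO UT. Cd8a itself was lost in 6 of 8 omissions (highest adjusted p 0.104), each but ATF6aKO UT replicate 2 and ATF6aKO DSS replicate 2, and in 4 of 7 other settings, with quantile normalization, no filter, the mean of a gene's probes and the replicate block. Fibroblast markers rose in 6 of 6 cases by smaller amounts (median 0.70, Pdgfra 1.12, Dcn 0.81), and in 3 without ATF6bKO DSS replicate 2 or ATF6aKO UT replicate 2. In single knockouts 0 of 6 T and NK cell markers were called in ATF6aKO (median 0.64) and 4 in ATF6bKO (median 2.55). The ATF6aKO arrays of Cd8a overlapped (0.60, limma adjusted p = 0.457). Of the fibroblast markers 1 was called in each knockout. Of 4 tested eosinophil markers, the cells that Ccl11 attracts, Ear1 (1.35) and Prg2 (1.04) rose over both knockouts, with 0 called in ATF6aKO and 1 in ATF6bKO. Neither eosinophil call held without ATF6bKO UT replicate 1, either ATF6bKO DSS array or ATF6aKO DSS replicate 1, and Prg2 was also lost without replicate 2 of ATF6bKO UT or ATF6aKO UT. Colon epithelium markers had a median of 0.06, with Aqp8 lower (-0.99) and Krt8 higher (0.30), the latter lost in each of 8 omissions (highest adjusted p 0.132) and in 5 of 8 other settings.

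Between the WT groups, of 10 neutrophil markers 1 was higher and 1 lower on the arrays titled DSS, where 14.7% and 17% of all genes were. The median difference of the 11 macrophage markers was -0.31. The mean level of the neutrophil markers was -4.22 and -5.07 on the arrays titled DSS and -4.81 and -5.14 on those titled UT. On these arrays 6 to 9 of the 10 were above background.

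**Figure D4:**
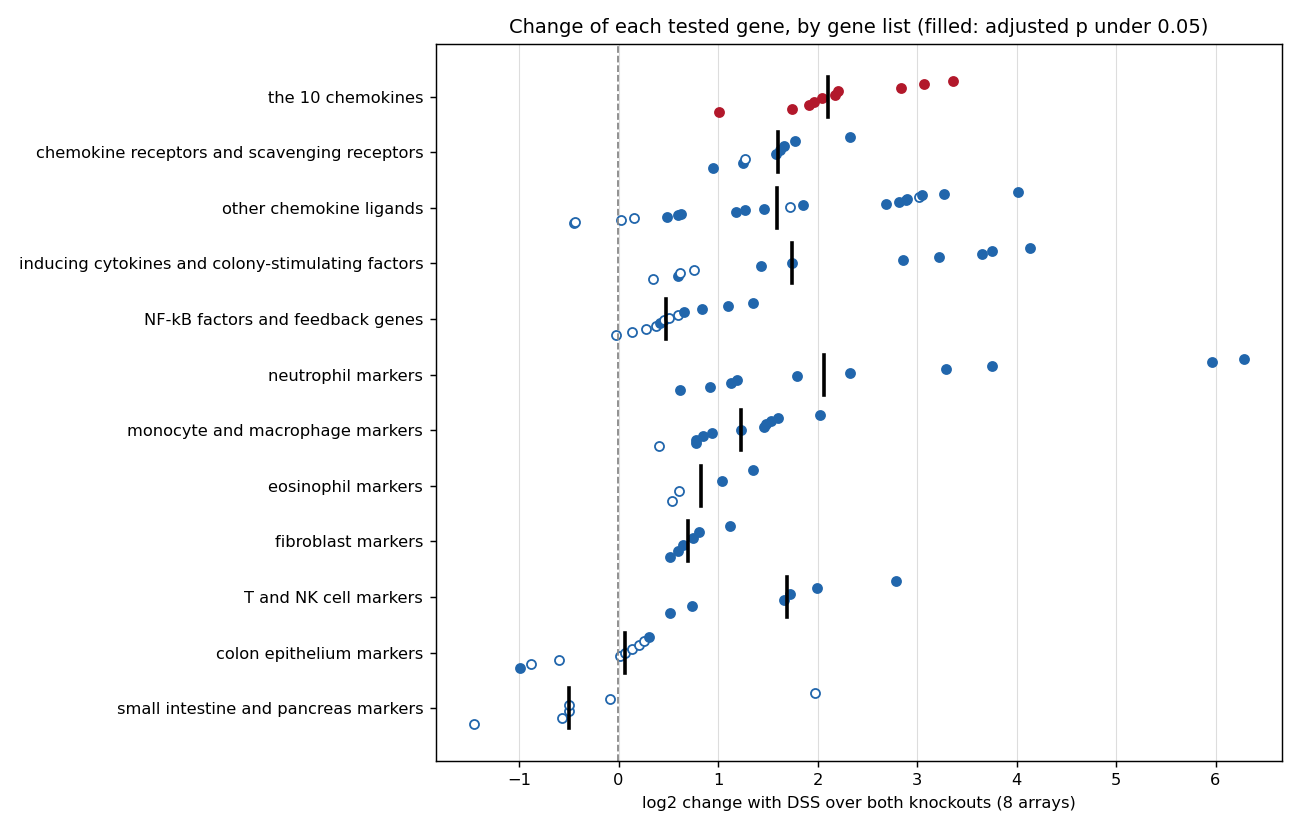
Change with DSS over both knockouts (horizontal axis, log2, 8 arrays) of each tested gene in 12 gene lists, the 10 chemokines in red. Filled points passed an adjusted p of 0.05, black bars are list medians and the dashed line is the median of all genes, -0.01. All 10 chemokine points are filled and lie between 1.01 and 3.36, and those of Cxcl2 and Ccl3 rest in part on signals not above background.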

How the data were processed

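RNA from 12 colon samples was measured on single-colour arrays. Spots were read with Agilent Feature Extraction 10.7.1.1, per the submitters' processing notes. Scanner output was deposited and gives, per the file headers, an intensity for each spot as a processed signal from which the program had subtracted background. The authors' deposited value table holds log2 values, centred for each probe (41267 of 41267 means lie within 0.001 of 0), with column medians from -0.465 to 0.242; its direction runs with the scanner files and its scaling between arrays stays unknown.

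Control spots and outlier spots (54 to 108 per array) were left out, spots of a probe averaged, and each array scaled to its 75th percentile, which was 246 to 1186 intensity units. No spot was saturated. A probe was kept if well above background on both arrays of at least 1 group, and a gene was represented by its kept probe with the highest mean level. Accessions were named through a RefSeq table of GRCm38.p6, which named 61.2% of probes. Tests used limma 3.58.1 in R 4.3.3 (functions lmFit and eBayes) with 6 group means over 12 arrays, or genotype and treatment over the 8 knockout arrays for the pooled comparison, with Benjamini-Hochberg adjustment over 23239 genes at 0.05. There were 10 comparisons. Intervals are 95%, and 2 arrays a group limit the precision.

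Named were all 10 chemokines, Atf6 and Atf6b, and from each list those past the threshold with the largest pooled change, 4 at most (2 from a marker list), of which 1 is not reported here. The receptor Ccr6 and the ligands Ccl25 and Ccl28 were added after their values were seen. The chemokines and the lists were chosen with earlier results of these data known. Replicate numbers were not treated as pairs in the main tests. Correlations of deviations ran from -0.223 to 0.15 over 15 pairs of groups, 2 of them over 0.1. With 2 arrays a group these cannot settle whether samples were paired. The tests were tried on simulated arrays with known changes. Alternatives were normexp with an offset of 50, quantile normalization, other filters, other arrays in the fit, the mean of a gene's probes, a replicate block, the value table, the other WT labels and omission of each array. Promoters of the other 5 chemokines were not used here.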

Additional observations from a re-analysis of the deposited data

Results flagged for a closer look

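For 4 chemokines the DSS response differed between genotypes by a test of the difference itself, ATF6bKO minus WT with WT grouped by titles. The differences were 2.31 for Cxcl1, 2.95 for Ccl3, 2.22 for Ccl4 and 2.24 for Ccl11. Under the other reading of the WT labels they were 5.52, 5.80, 3.79 and 0.63, and Ccl11 no longer passed. The values of Ccl3 are fitted over untreated signals that were below background on both ATF6bKO UT arrays and on 1 of the 2 WT arrays titled UT, so they are no measure of its size. Genotype and scan run cannot be told apart in this comparison.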

How the results depend on the processing

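Of the 41 called values of single chemokines, 318 of 452 recomputations with 1 array left out and 291 of 351 under other settings kept direction and call; 49 of the latter lost the call and 11 turned direction. With 1 array left out, the number of chemokines called ran from 0 to 6 in ATF6aKO, 4 to 10 in ATF6bKO, 7 to 9 pooled, 1 to 5 in WT by titles, 1 to 6 for ATF6bKO minus WT, 0 to 3 for ATF6aKO minus WT, 1 to 5 for untreated ATF6aKO against WT and 2 to 5 for untreated ATF6bKO against WT. With no filter it was 2 in ATF6aKO, 2 in WT, 1 for untreated ATF6aKO against WT and 2 for ATF6bKO minus WT. With only the compared arrays in the fit it was 1 in WT, 2 for untreated ATF6aKO against WT and 2 for ATF6bKO minus WT. With normexp it was 2 in WT, 2 for untreated ATF6aKO against WT and 2 for ATF6aKO minus WT, and untreated Ccl4 in ATF6bKO turned to 0.21. Quantile normalization gave 3 for untreated ATF6aKO against WT.

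With the value table as labelled the number was 3 in ATF6aKO, 3 lower in WT, 3 for untreated ATF6aKO against WT, 7 for ATF6aKO minus WT and 8 for ATF6bKO minus WT. The WT differences turned to -1.67 for Cxcl1, -2.99 for Cxcl5 and -0.85 for Ccl4, and those of untreated ATF6aKO against WT to -0.47 for Cxcl2 and 0.39 for Ccl11. With WT by the treatment fields 4 were lower in WT, with Cxcl1 at -1.61, Cxcl2 at -2.10, Cxcl5 at -2.93 and Ccl4 at -0.78, while 8 were higher for ATF6aKO minus WT and 9 for ATF6bKO minus WT. Untreated Cxcl2 in ATF6aKO turned to -1.09. By construction the WT columns and labels are exchanged there; otherwise the cause was not tested.

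With the replicate block the number was 5 in ATF6aKO, 10 in ATF6bKO, 9 pooled, 5 in WT and 5 for ATF6bKO minus WT. The fit of the 8 knockout arrays, chosen after seeing the data, called 6 in ATF6aKO and 10 in ATF6bKO, and 2915 against 1472 genes in ATF6aKO. Normexp moved the pooled calls of all genes from 3082 of 6765 higher to 4939 of 8368, and the median of all genes from -0.01 to 0.11. In untreated ATF6bKO against WT it moved that median to 0.32. Its offset shrinks changes of dim probes by construction, and the pooled medians were 1.49 for the chemokines, 0.86 for receptors, 0.82 for cytokines, 0.65 for neutrophil markers, 0.52 for eosinophil markers and 0.74 for T and NK cell markers. Over all genes, with only the compared arrays in the fit the calls went from 1472 to 684 in ATF6aKO, 2994 to 1804 in ATF6bKO, 7376 to 636 in WT, 136 to 0 between the untreated knockouts, 10873 to 6019 and 10865 to 3673 for untreated ATF6aKO and ATF6bKO against WT, and 1777 to 158 and 3399 to 891 for their responses minus WT. With no filter they were 694 in ATF6aKO, 9 between the untreated knockouts, and 260 and 1487 for the responses minus WT. Normexp gave 1800 in ATF6bKO, 755 between the untreated knockouts and 2677 for ATF6aKO minus WT, the strict filter 2843 for the last, and the 8 knockout arrays 4598 in ATF6bKO. Between the untreated knockouts 21 were called with the block and 42 with the value table. For the responses minus WT the value table gave 5876 and 6122 and the treatment fields 6480 and 6803, and for the untreated knockouts against WT the fields gave 4516 and 3990. Signals near background limit Cxcl2 and Ccl3, whose untreated levels are bounds.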
